A study of Mus musculus with 6 samples.

Results

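The genes described here encode the nuclear RNA polymerases I, II and III and the initiation factors of polymerases I and III. They are the 44 protein-coding genes on chromosomes 1 to 19 whose symbols begin with Polr1, Polr2, Polr3, Gtf3a or Gtf3c, together with Taf1a to Taf1d, Ubtf, Rrn3, Brf1, Brf2 and Bdp1, out of 20722 protein-coding genes with a coding transcript on these chromosomes. The rule used their names and no measured value, but the set was proposed with earlier results of these data known. Chromatin immunoprecipitation sequencing (ChIP-seq) was performed on untreated primordial germ cell-like cells (PGCLCs), cultured cells that resemble the founders of the germline, of the mouse strain 129Sv/J at day 2. The 6 samples were 2 for Tex10 fused at its C-terminus to the HA peptide and precipitated through that tag (antibody Abcam ab9110), 2 for trimethylated histone H3 lysine 4 (H3K4me3, antibody Abcam ab8580), a mark of active promoters, and 2 of input DNA, which no list used here represents. All samples carry the same labels for cells, strain and treatment. No untagged control is among these samples, and the labels do not say whether the tagged line is 1 clone.

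The authors' interval lists give a start and an end with no score. The values below come from 1 list for each antibody, with 4129 HA-Tex10 and 27954 H3K4me3 intervals on chromosomes 1 to 19, and none names a replicate. A further list holds the HA-Tex10 intervals that meet H3K4me3 and served as an alternative. They therefore have no replicate spread, no comparison was tested, and the sequencing depth is unknown. A gene was counted as having an interval if one lay within 1 kb of the transcription start site (TSS) of any of its protein-coding transcripts. Where no interval is listed, occupancy was not detectable at the authors' threshold, and absence is not shown. Of 8 germ cell and pluripotency genes, 6 had H3K4me3 at a TSS (Prdm1, Tfap2c, Prdm14, Pou5f1, Sox2 and Nanog), whereas Dppa3 and Nanos3 had none. Of 9 genes of other cell types, 3 had it (Cdx2, Gata6 and Sox17).

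As background, RNA polymerase I transcribes the large ribosomal RNA precursor in the nucleolus. Polymerase II transcribes messenger RNA, and polymerase III transcribes transfer RNA, the small ribosomal RNA and other short RNAs. Each enzyme has its own large catalytic subunits, and several small subunits are common to all of them. Polymerase I is recruited by Ubtf and by the selectivity factor that holds Taf1a to Taf1d, with Rrn3 bridging to the enzyme. Polymerase III is recruited by the DNA-binding complex TFIIIC, made of the Gtf3c proteins, and by TFIIIB, which contains Bdp1 with Brf1 or Brf2. Tex10 is known as part of a complex that matures the large ribosomal subunit and as a chromatin-bound protein of pluripotent cells.

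The sequences under HA-Tex10 at 7 of these promoters are shown because they lie at or near the start site of a catalytic subunit of polymerase II (Polr2a), of a subunit common to every polymerase (Polr2e), of polymerase III genes (Polr3b, Gtf3c2), of the polymerase I factor that had an interval (Taf1c), and the 2 intervals that lay outside H3K4me3 (Polr2g, Gtf3c6). They were read from the GRCm38 reference on the coding strand of each gene, 5′ to 3′, and are stretches of the intervals with at most 30 bases of annotated UTR and at most 300 bases. Capitals mark letters that match a searched motif on either strand, namely the SP box GGGCGG, the TATA box TATAAA, the ETS site CCGGAAG, the NFY site CCAAT or the E-box CACGTG. Polr2a is from chr11:69758608-69758907 (minus strand), Polr2e from chr10:80039766-80040054 (minus), Polr3b from chr10:84622009-84622296 (plus), Gtf3c2 from chr5:31180115-31180201 (minus), Taf1c from chr8:119604999-119605145 (minus), Polr2g from chr19:8798744-8798913 (minus) and Gtf3c6 from chr10:40258452-40258670 (minus).
Polr2a: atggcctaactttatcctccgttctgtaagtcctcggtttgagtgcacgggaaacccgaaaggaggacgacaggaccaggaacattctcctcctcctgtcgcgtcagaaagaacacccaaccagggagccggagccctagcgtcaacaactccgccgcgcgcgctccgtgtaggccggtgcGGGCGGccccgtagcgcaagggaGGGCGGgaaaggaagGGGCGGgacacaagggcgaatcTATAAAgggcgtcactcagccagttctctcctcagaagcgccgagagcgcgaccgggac
Polr2e: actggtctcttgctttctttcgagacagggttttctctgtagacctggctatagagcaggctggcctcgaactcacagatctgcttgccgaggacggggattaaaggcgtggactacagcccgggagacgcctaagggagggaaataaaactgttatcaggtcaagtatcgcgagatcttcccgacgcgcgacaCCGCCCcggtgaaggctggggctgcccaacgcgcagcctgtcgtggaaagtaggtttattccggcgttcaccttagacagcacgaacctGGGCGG
Polr3b: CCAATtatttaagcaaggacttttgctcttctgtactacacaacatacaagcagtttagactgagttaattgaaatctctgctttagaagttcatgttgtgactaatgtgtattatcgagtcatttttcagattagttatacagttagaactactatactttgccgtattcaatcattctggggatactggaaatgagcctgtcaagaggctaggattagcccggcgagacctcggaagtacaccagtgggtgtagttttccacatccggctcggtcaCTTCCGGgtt
Gtf3c2: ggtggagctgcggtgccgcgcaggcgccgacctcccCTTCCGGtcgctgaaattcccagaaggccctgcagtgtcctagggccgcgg
Taf1c: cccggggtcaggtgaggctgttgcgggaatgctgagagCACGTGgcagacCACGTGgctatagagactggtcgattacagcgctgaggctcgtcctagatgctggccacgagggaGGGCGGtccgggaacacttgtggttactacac
Polr2g: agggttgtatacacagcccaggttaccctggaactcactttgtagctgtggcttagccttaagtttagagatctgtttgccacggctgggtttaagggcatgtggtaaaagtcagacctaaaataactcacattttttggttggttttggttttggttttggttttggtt
Gtf3c6: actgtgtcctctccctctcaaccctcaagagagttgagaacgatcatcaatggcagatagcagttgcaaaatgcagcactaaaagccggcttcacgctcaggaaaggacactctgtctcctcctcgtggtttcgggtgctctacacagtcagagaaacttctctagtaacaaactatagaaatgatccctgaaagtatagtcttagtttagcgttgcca
The Polr2a stretch holds 3 SP boxes followed by a TATA box, and the Taf1c stretch holds 2 E-boxes and an SP box. In Polr2e an SP box appears on each strand, in Polr3b the stretch opens with an NFY site and an ETS site on the opposite strand spans the start site, and in Gtf3c2 the ETS site is also on the opposite strand. The Polr2g and Gtf3c6 stretches hold none of the searched motifs.

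H3K4me3 was present at all 44 genes, against 62.6% of all protein-coding genes. HA-Tex10 was present at 10 of them (22.7%, exact 95% binomial interval 11.5 to 37.8%, which covers the counting of genes only). The background was 9.13% over all protein-coding genes and 14.3% over the 12966 genes with H3K4me3, and the latter is the closer reference because every member was marked. It lies inside the interval of the members' share. The 10 genes were Polr2a, Polr2g, Polr2i and Polr2j of polymerase II, Polr3b, Polr3d, Gtf3c2 and Gtf3c6 of the polymerase III system, Taf1c of the polymerase I system, and Polr2e, which all 3 enzymes share. They held 11 distinct HA-Tex10 intervals, since Polr2a had 2.

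**Figure D1:**
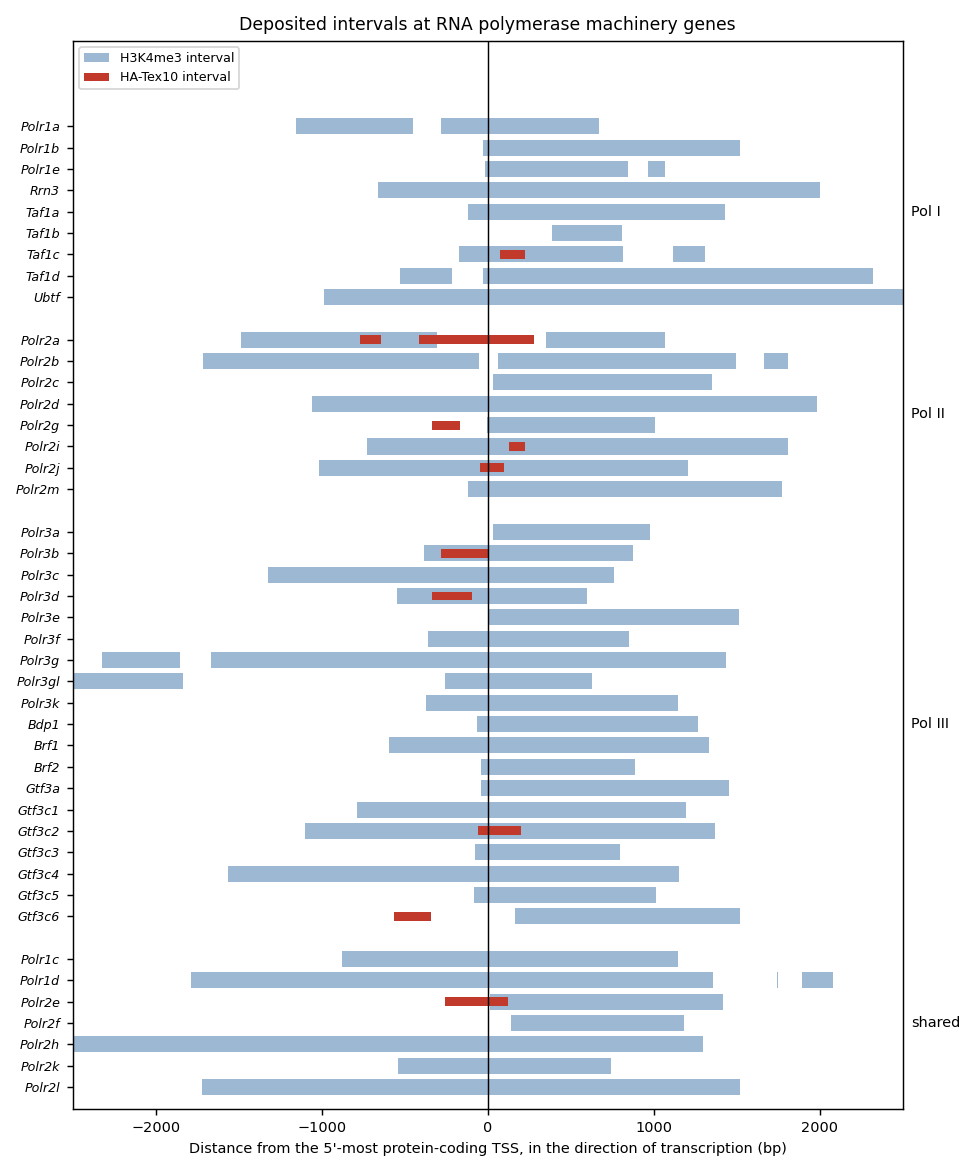
H3K4me3 intervals (wide blue bars) and HA-Tex10 intervals (narrow red bars) at the genes named, ordered by polymerase, against the distance in bp from the 5′-most protein-coding TSS (vertical line) in the direction of transcription. Every gene drawn has a blue bar, while 10 have a red one, and at Polr2g and Gtf3c6 the red bar lies before the blue bar.

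By polymerase, the polymerase II group had the highest share of the 4 groups, with HA-Tex10 at 4 of 8 genes (50%, exact interval 15.7 to 84.3%). It holds subunit genes and the inhibitor gene Polr2m but, unlike the polymerase I and III groups, no initiation factors. The general factors of polymerase II, listed apart below, had HA-Tex10 at 6 of 30 (20%). The polymerase III group, with 10 subunits and 10 initiation factors, had it at 4 of 20 (20%, 5.73 to 43.7%), split as 2 subunits and 2 factors. The shared subunits had 1 of 7 (14.3%, 0.361 to 57.9%), and the polymerase I group of 3 subunits and 6 factors had 1 of 9 (11.1%, 0.281 to 48.3%). The intervals of the 4 groups overlap, and no difference between groups was tested. The polymerase II count was 3 with the list of HA-Tex10 intervals that meet H3K4me3. It was 2 when an interval had to cover the TSS and 1 when only intervals wider than their list's median were kept. The share of marked genes was 13.5%, 7.01% and 8.88% in these settings. In the last 2 settings H3K4me3 had to meet the same condition, which left 11248 and 10623 marked genes. The polymerase II counts stayed over all 8 genes.

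**Figure D2:**
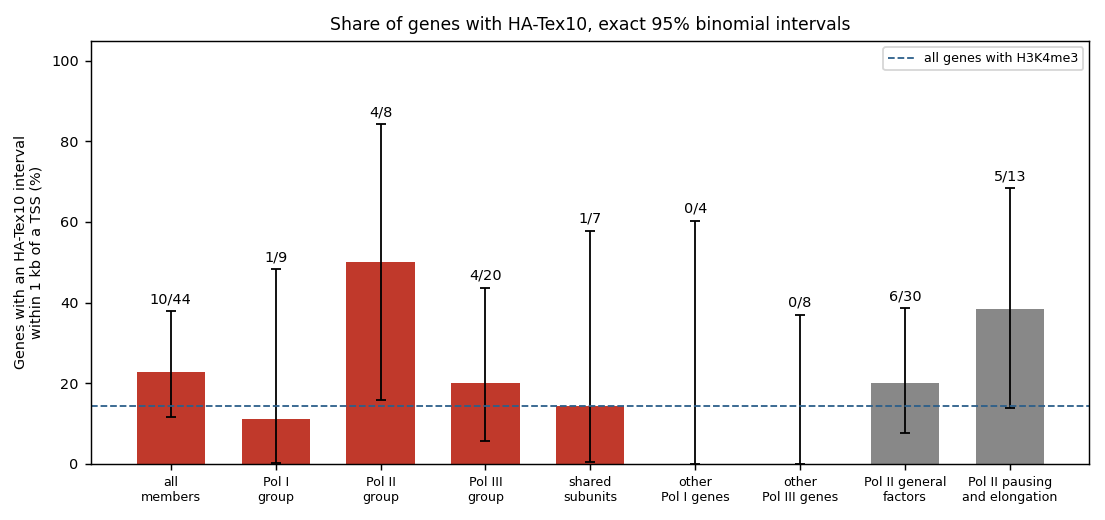
Percent of genes called for HA-Tex10, counted within 1 kb of their start sites (bars), with exact 95% binomial intervals (lines) for the 44 members and their 4 groups (red) and for 4 lists of other genes of the same systems (grey). The dashed line is the 14.3% of all genes with H3K4me3. It lies inside the interval of each set drawn except the polymerase II group, whose lower end is 15.7%. That group has 8 genes, and its count of 4 was 3, 2 or 1 under other settings. All sets were chosen with earlier results known. The binomial intervals cover the counting of genes only, and no difference from the line was tested.

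Among the polymerase II subunits, Polr2a (ENSMUSG00000005198.15, chromosome 11) encodes the largest, catalytic subunit with the C-terminal repeat domain. Its first HA-Tex10 interval, chr11:69758361-69759052, was 692 bp wide and contained the 5′-most TSS at 69758637. H3K4me3 was split there into intervals of 717 and 1181 bp with a gap of 655 bp that held this TSS, and 582 bp of the gap lay in the HA-Tex10 interval. The interval met the upstream H3K4me3 interval over 110 bp (15.9% of its width). The second, chr11:69759278-69759405, was 128 bp wide, lay 641 bp upstream of the TSS and lay wholly inside the upstream H3K4me3 interval. Polr2b, the second largest subunit, also had its TSS in a gap between H3K4me3 intervals (1658 and 1437 bp, gap 115 bp), with no HA-Tex10 within 1 kb.

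Polr2g (ENSMUSG00000071662.4, chromosome 19), which with Polr2d forms the stalk of polymerase II, had an interval of 170 bp, chr19:8798744-8798913, which lay 167 bp upstream of the TSS. H3K4me3 there (1010 bp) began 3 bp upstream of the TSS and ran downstream, so the intervals did not meet. Polr2d, the other stalk subunit, had 3046 bp of H3K4me3 and no HA-Tex10 within 1 kb. Polr2j (ENSMUSG00000039771.13, chromosome 5), which pairs with Polr2c in enzyme assembly, had an interval of 147 bp, chr5:136116582-136116728, over its TSS and inside 2222 bp of H3K4me3. Its centre fell in annotated UTR, and Polr2c had none. Polr2i (ENSMUSG00000019738.15, chromosome 7), a small subunit with a role in transcript fidelity, had an interval of 93 bp, chr7:30232078-30232170, which lay 46 bp downstream of its nearest TSS. It was also 102 bp downstream of a TSS of Tbcb on the opposite strand, so the list does not tell these genes apart. The remaining gene without HA-Tex10 in this group was Polr2m, which encodes an inhibitor bound to a fraction of the enzyme.

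Among subunits in more than one enzyme, Polr2e (ENSMUSG00000004667.18, chromosome 10) had an interval of 382 bp, chr10:80039673-80040054, over its TSS. Its H3K4me3 (1406 bp) began 11 bp downstream of that TSS, and the overlap was 112 bp (29.3% of the HA-Tex10 interval). Polr2f, Polr2h, Polr2k and Polr2l, also common to all 3 enzymes, and Polr1c and Polr1d, common to polymerases I and III, had none. Of these, Polr2h had 4294 bp of H3K4me3, wider than at 98.6% of marked genes.

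Among polymerase III subunits, Polr3b (ENSMUSG00000034453.8, chromosome 10), the second largest, had an interval of 288 bp, chr10:84622009-84622296, which reached just past the TSS at 84622292 and lay inside 1258 bp of H3K4me3. Polr3d (ENSMUSG00000000776.13, chromosome 14), which forms a dimer with Polr3e, had an interval of 237 bp, chr14:70443545-70443781, located 98 bp upstream of the TSS and inside 1144 bp of H3K4me3. Those without HA-Tex10 within 1 kb included Polr3a, the largest subunit, and Polr3c, Polr3e, Polr3f and Polr3k. Polr3g and Polr3gl are alternative versions of 1 subunit, and Polr3g is known as the form enriched in pluripotent cells. Their H3K4me3 intervals were 3102 and 883 bp wide, at the 94.4 and 25.2 percentiles of marked genes. The promoters also differ in their neighbours. A coding TSS of Mblac2 on the opposite strand lay 328 bp from a Polr3g TSS, whereas Polr3gl had no such neighbour within 1 kb. Whether the difference in width goes with the neighbour or with the cell type was not tested. The nearest HA-Tex10 interval was 1686395 bp from a Polr3g TSS, the farthest among the members, and 13852 bp from a coding TSS of Polr3gl, inside that gene.

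Among polymerase III initiation factors, Gtf3c2 (ENSMUSG00000106864.3, chromosome 5), a subunit of TFIIIC, had an interval of 260 bp, chr5:31179942-31180201, over a TSS and inside 2472 bp of H3K4me3. Its centre fell in annotated UTR, and it lay 31 bp upstream of a TSS of the coding gene model Gm29609 on the same strand. Gtf3c6 (ENSMUSG00000019837.8, chromosome 10), another TFIIIC subunit, had an interval of 219 bp, chr10:40258452-40258670, located 344 bp upstream of the TSS. The H3K4me3 interval of Gtf3c6 (1354 bp) began 167 bp downstream of the 5′-most TSS and did not meet it. Gtf3c1, Gtf3c3, Gtf3c4 and Gtf3c5, Gtf3a, which recognises the small ribosomal RNA gene, and the TFIIIB genes Bdp1, Brf1 and Brf2 had none. Brf1, used at most polymerase III genes, and Brf2, used at those with an upstream promoter, had 1928 and 929 bp of H3K4me3.

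Among polymerase I genes, Taf1c (ENSMUSG00000031832.15, chromosome 8) was the one with HA-Tex10. The interval, chr8:119604999-119605145, was 147 bp wide, lay 77 bp downstream of the TSS and was inside 988 bp of H3K4me3. Its centre fell in an intron. Chromosome 8 had HA-Tex10 at 41.2% of its marked genes, against 12.7% elsewhere. Of the 3 members there, Taf1c had an interval and Polr2c and Brf2 did not. Without chromosome 8 the members' count was 9 of 41 (exact interval 10.6 to 37.6%), and the polymerase I group had 0 of 8. The subunits Polr1a, Polr1b and Polr1e, the factors Taf1a, Taf1b and Taf1d, and Ubtf and Rrn3 had none.

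**Figure D3:**
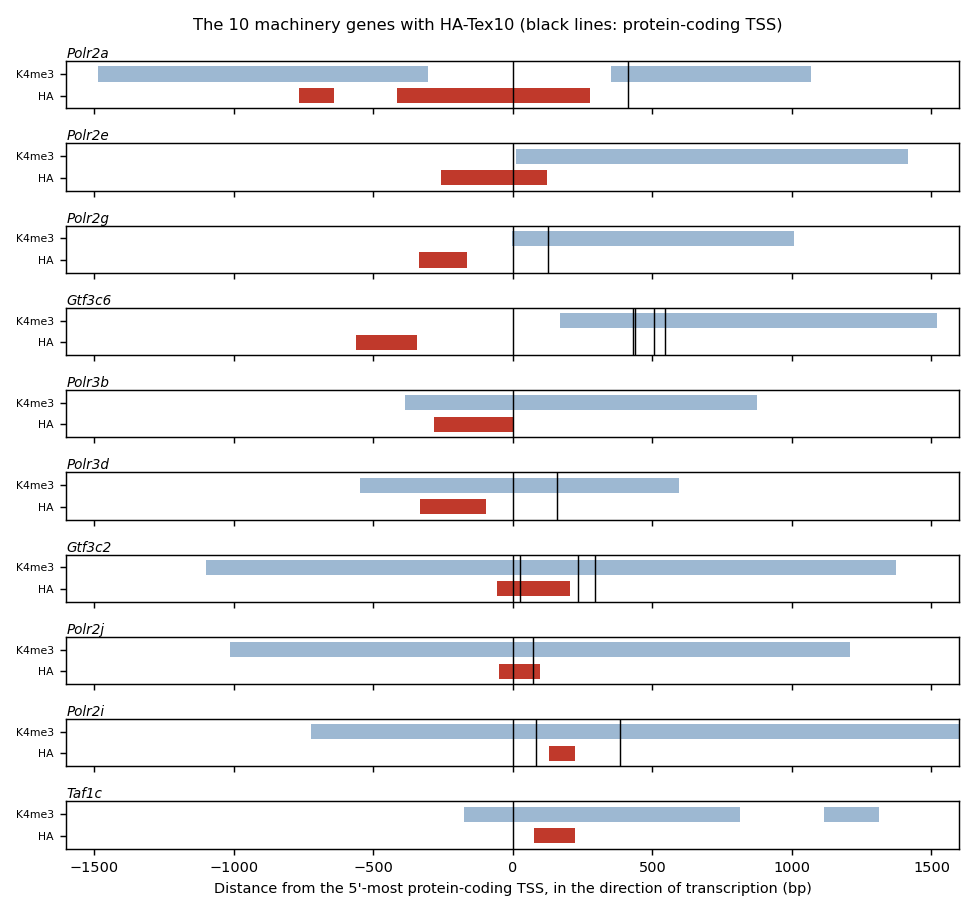
H3K4me3 (upper bars, blue) and HA-Tex10 intervals (lower bars, red) at the 10 genes with HA-Tex10, against the distance in bp from the 5′-most protein-coding TSS. Black lines mark every protein-coding TSS in the range drawn. The wider Polr2a interval fills most of the 655 bp gap in H3K4me3, and the intervals of Polr2g and Gtf3c6 lie upstream of the mark.

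Over the 11 intervals, 5 covered a TSS, 4 lay upstream and 2 downstream of the nearest one. Over the 1734 HA-Tex10 intervals at a TSS of any marked gene, 44.8% covered a TSS, 30.6% lay upstream and 24.6% downstream. Within 100 bp of a TSS there were 8 of the 11, against 65.7% of the 1734. The median width was 219 bp at members and 234.5 bp at all marked genes. Of the 11 intervals, 7 lay wholly inside H3K4me3, 2 partly (Polr2a and Polr2e) and 2 outside it, while 92.3% of the 1734 met H3K4me3. None of the 11 was mostly made of 32-base words that recur in the genome. Such words made up 13.8% of the Gtf3c6 interval, 5.04% of the Polr2g interval and none of the other 9, whereas 7.04% of the 1734 were mostly repeated. Only exact recurrences were counted, so diverged copies of a repeat would not be seen. The 1 kb limit did not decide any call among coding TSS, since the farthest interval inside it lay 641 bp from the TSS (Polr2a) and the nearest outside it were 3728 bp upstream of Polr2g, as a further interval of that gene, and 4177 bp downstream of a Brf2 TSS, in coding sequence of Adgra2. For the 34 genes without HA-Tex10, the nearest interval was 4177 to 1686395 bp from a TSS, with a median of 106388 bp.

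The density of HA-Tex10 around the genes varied. The 1 Mb windows of Polr2e, Polr2a and Taf1c held 20, 13 and 11 HA-Tex10 intervals, and those of the other 7 held 1 to 7. With windows of 10 or more intervals left out, 7 of 44 members kept an interval, and 11.1% of marked genes had one in that setting.

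H3K4me3 at the members had a median width of 1504 bp, taking the widest interval per gene, against 1360 bp for all marked genes (quartiles 879 and 1981 bp). The widths ran from 421 bp at Taf1b to 5126 bp at Ubtf, the polymerase I factor that coats ribosomal DNA, which was wider than 99.4% of marked genes. All 9 coding TSS of Ubtf, up to 3067 bp apart, lay inside that interval. Of the 44 genes, 24 were above the median of marked genes, 14 above the upper quartile and 4 below the lower, among them Taf1b and Gtf3c3. Group medians were 1549 bp for polymerase I, 1774 bp for polymerase II, 1340 bp for polymerase III and 2023 bp for the shared subunits, with overlapping ranges. The 10 members with HA-Tex10 had a median of 1306 bp and a range of 988 to 2537 bp, inside the range of the 34 without (median 1534 bp). Among all marked genes the order was the other way, with medians of 1756 bp with HA-Tex10 and 1294 bp without. In the upper quartile of width, 3 of 14 members had HA-Tex10, against 23.3% of marked genes, and below it 7 of 30 did, against 11.3%. These differences were not tested.

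**Figure D4:**
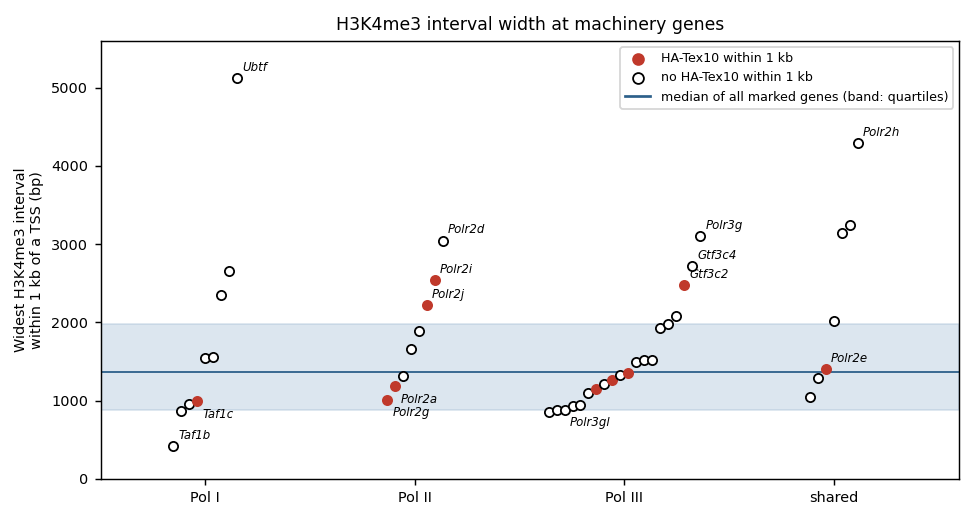
Width in bp of the widest H3K4me3 interval within 1 kb of a TSS for each of the 44 genes, by polymerase group; filled red points have HA-Tex10 and points are spread sideways by rank. The line and band are the median (1360 bp) and quartiles of all marked genes, and the filled points lie between 988 and 2537 bp.

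H3K4me3 was in 2 intervals at 6 of 44 members, among them Polr1a, Taf1d, Polr2a and Polr2b, and 2 or more at 20.03% of marked genes. The gap was 115 to 185 bp at 5 of these genes and 655 bp at Polr2a, and it held a TSS at Polr2a and Polr2b. The 5′-most TSS lay inside H3K4me3 at 36 of 44 members and 74.4% of marked genes. The 8 members where it lay outside were Polr2a, Polr2e and Gtf3c6, which had HA-Tex10, and Polr2b, Polr2c, Polr2f, Polr3a and Taf1b, which did not. This is 3 of 10 members with HA-Tex10 and 5 of 34 without, whereas among marked genes the TSS lay outside at 17.75% with and 26.9% without. The difference was not tested.

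Opposite-strand neighbours were compared after the values were seen. Another protein-coding TSS on the other strand lay within 1 kb of a member's TSS at 13 of 44 genes (29.5%), against 17.8% of marked genes. The pairs included Polr1c with Yipf3 (26 bp apart), Polr3c with Rnf115 (36 bp), Polr2b with Noa1 (63 bp) and Gtf3c4 with the helicase gene Ddx31 (99 bp). HA-Tex10 was present at 1 of these 13 members (Polr2i, with Tbcb at 60 bp) and at 9 of the 31 others (29.03%). Over all marked genes it was present at 24.2% of those with such a neighbour and 12.1% of those without, the opposite order, and the difference was not tested. H3K4me3 reached a median of 876 bp upstream of the TSS at the 13 members and 118 bp at the 31, and 926 and 167 bp at the marked genes of each kind.

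**Figure D5:**
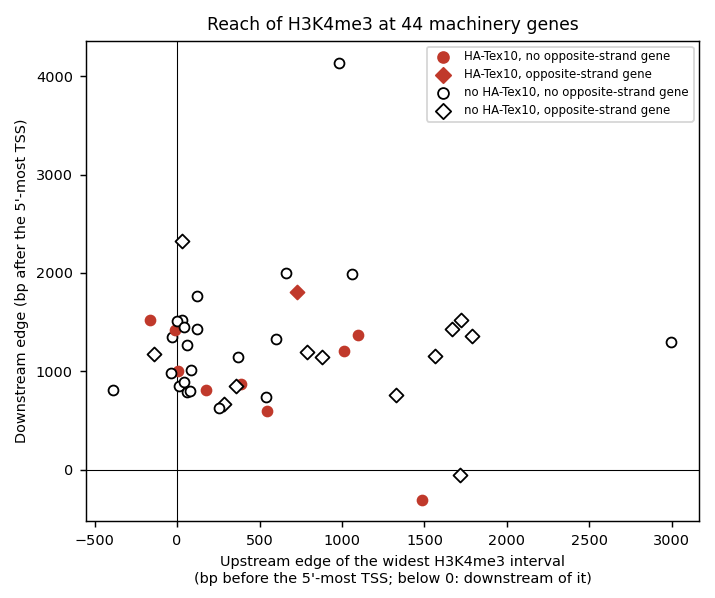
Upstream edge (horizontal axis, bp before the 5′-most TSS) and downstream edge (vertical axis, bp after it) of the widest H3K4me3 interval at each of the 44 genes; diamonds have an opposite-strand coding TSS within 1 kb and red symbols have HA-Tex10. The diamonds have a median upstream edge of 876 bp against 118 bp for circles, and 1 of the 13 diamonds is red.

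Base composition of the members' promoters, 250 bp before to 50 bp after the 5′-most TSS, was close to that of marked genes. The median GC content was 60.5% for members and 60.7% for marked genes, and the observed over expected CpG ratio was 0.776 and 0.75. The members with and without HA-Tex10 had median GC contents of 59.3% and 61.2%. Taking 200 bp at the centre of each of the 11 intervals, the median GC content was 58.5%, against 62.5% for the 1734, with a range from 39% at Polr3b to 67% at Polr2a.

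RefSeq promoters of the same length on GRCm38.p6 were found for 36 of the 44 symbols and searched for 10 motifs on both strands. These 36 symbols had 46 promoters, and a symbol was counted if any of its promoters held the motif. The 27025 symbols used for comparison are not limited to the 20722 coding genes. Those not matched included Polr2g and Polr3d, which had HA-Tex10. The ETS site CCGGAAG was found for 16 of 36 member symbols (44.4%), against 9.93% of 27025 symbols with a promoter and 19.7% of 10049 with H3K4me3. Its carriers included Polr2j, Polr3b, Gtf3c2, Gtf3c6 and Taf1c, which is 5 of the 8 matched genes with HA-Tex10, and 11 of the 28 without it. The NRF1 core GCATGCGC was in 5 (13.9%; 3.05% of all and 5.98% of marked), namely Gtf3a, Polr2b, Polr2j, Taf1a and Ubtf. The SP box GGGCGG was in 24 (66.7%; 38.2% and 71.6%), the NFY site CCAAT in 12 (33.3%; 41.1% and 42.6%) and the E-box CACGTG in 6 (16.7%; 8.09% and 11.8%). The TATA box TATAAA was in 3, Polr2a, Polr2c and Gtf3c6 (8.33%; 15.7% and 7.92%). CREB TGACGTCA was in 2 (5.56%; 2.03% and 3.58%) and YY1 AAGATGGCG in 1 (2.78%; 1.64% and 3.36%). ZBTB33 CTCGCGAG (1.04% and 2.13%) and THAP11/ZNF143 ACTACAATT (0.448% and 0.826%) were in none. No motif holds the letters of another on either strand.

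Within the 11 HA-Tex10 intervals themselves, ETS was found in 4 (Polr2a, Polr2j, Polr3b and Gtf3c2), against 13.9% of the 1734. The SP box was in 5, against 47.4%, NFY in 2, against 25.8%, and the E-box (Taf1c) and TATA box (Polr2a) in 1 each, against 8.13% and 4.04%. The other 5 motifs were in none of the 11 and in 5.77% (NRF1), 2.65% (CREB), 2.54% (YY1), 0.807% (ZBTB33) and 0.346% (THAP11/ZNF143) of the 1734.

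Other genes of these systems outside the members, listed by textbook role with earlier results known, all had H3K4me3 (55 of 55), and 11 of them had HA-Tex10 (20%), beside 14.3% of marked genes. The 4 other polymerase I genes (Twistnb, Cd3eap and Znrd1, which encode further subunits, and the termination factor Ttf1) had none, with an exact upper limit of 60.2%. The 8 other polymerase III genes (the subunit Crcp, the repressor Maf1, Snapc1 to Snapc5 and Ssb) had none either, with an upper limit of 36.9%. Of 30 general factors of polymerase II, 6 had an interval (20%), namely Gtf2a1, Gtf2h1, Gtf2h5, Taf3, Taf6 and Taf8. It covered a TSS at 5 of them and lay 34 bp downstream at Taf3. Of 13 pausing and elongation genes, 5 had one (38.5%, exact interval 13.9 to 68.4%). They were Nelfb and Nelfcd of the negative elongation factor, the cyclins Ccnt1 and Ccnt2 of the kinase that releases paused polymerase, and the elongation factor Ell, which had 2 intervals and lies on chromosome 8. Nelfa, Nelfe, Supt4a, Supt5, Supt6, Cdk9, Tcea1 and Aff4 had none.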

How the data were processed

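ChIP-seq intervals of day 2 PGCLCs were used as deposited. The authors' 3 lists hold starts and ends in bp, with no score and no replicate. Of these, 1 holds H3K4me3, 1 HA-Tex10, and the third the HA-Tex10 intervals that meet H3K4me3. The submitters' processing notes name mm10, Bowtie2 2.3.4.3, SAMtools 1.9, MACS2 2.1.2 and HOMER. How replicates were combined, the threshold, the use of input and the depth are not given in the sources used here. No interval ended past a chromosome end of GRCm38, which is the assembly of mm10.

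Genes and TSS came from GENCODE M21, sequences from GRCm38.p6 (RefSeq). Distances were gaps between an interval and a TSS base (0 if covered), and overlap meant at least 1 bp. Intervals in which more than 50% of 32-base words recurred in the assembled chromosomes were called mostly repeated. Shares have exact (Clopper-Pearson) 95% binomial intervals. Interval assignment was tested on simulated data. Python 3.11.15, numpy 2.4.6 and scipy 1.17.1 were used.

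The members and lists were chosen with earlier results of these data known. Named were all members with HA-Tex10, those with an interval within 5 kb, the paralogs Polr3g/Polr3gl and Brf1/Brf2, the widest and narrowest H3K4me3, and listed genes with HA-Tex10. Alternatives were other windows, TSS sets, interval widths, the third list, repeats and chromosome 8. No set test was run. Values of 1 member are not reported here singly and it is not drawn in the map of intervals.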

Additional observations from a re-analysis of the deposited data

How the results depend on the processing

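No paired analysis was possible because the lists carry no replicate, and none could be left out. The lists used here carry no score, so width stood in for a stricter threshold. For the members' and groups' counts, the overlap count and the median widths, 67 of 79 values under alternatives stayed within the range set for them and 12 moved. Some of the 67 could not move. H3K4me3 was at all 44 members in the main setting, so wider windows could not add any. The third list changes HA-Tex10 only, and no shared subunit lies on chromosome 8. Interval counts of single genes moved in 19 of 110 values, and shares over all or all marked genes in 23 of 29. The range was not the same for each result, so these tallies do not rank their stability. A members' HA-Tex10 count of 7 against 10 stayed within it, whereas a marked-gene median width of 1342 against 1360 bp moved. Members with HA-Tex10 numbered 5 of 44 when the interval had to cover the TSS and 5 with the wider intervals of each list (above its median), and members with both intervals 4 and 5. The polymerase I count was 0 in both settings and without chromosome 8, the polymerase II count 2 and 1, and the polymerase III count 2 when the TSS had to be covered. The background among marked genes was 7.01% and 8.88% when the TSS had to be covered and with the wider intervals. It was taken over the 11248 and 10623 genes whose H3K4me3 met the same condition. The median H3K4me3 width of all marked genes was 1542 bp with wide intervals and 1342 bp without chromosome 8. The same 10 genes had HA-Tex10 with a 2.5 kb window, with the 5′-most TSS, without mostly repeated intervals and, chosen after seeing the data, with each interval given to its nearest TSS. The window and repeat settings restate values given above. At members no interval lay between 641 and 3728 bp from a coding TSS, and none of those counted was mostly repeated. Brf2 was added at 5 kb and Polr3gl with TSS of non-coding transcripts. The third list, of HA-Tex10 intervals that meet H3K4me3, kept 8 and lost Polr2g and Gtf3c6. The intervals of these genes lay outside H3K4me3, so that list had to lose them. Alternatives also chosen after seeing the data kept 9 without intervals under 100 bp, where 12.7% of marked genes had HA-Tex10, and 7 without dense windows (11.1%).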
